A study of Mus musculus with 8 samples.

Results

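The 10 genes described here belong to the Wnt pathway that acts on the blood vessels of the brain: the receptors and co-receptors Fzd4, Fzd6, Lrp6, Adgra2 and Reck, the nuclear factors Lef1 and Tcf7, and Axin2, Apcdd1 and Tnfrsf19, which are known as genes that the pathway switches on. They were taken by name from the 31053 genes of the count matrices. Their levels were measured by droplet-based single-cell RNA sequencing of the mouse cortex, in endothelial cells along the arterial to venous axis, in the other cell classes, and in mice lacking a laminin chain against the matching wild type.

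The mice were 8 weeks old and perfused, and each sample is listed with a pool of 3 brains. Whether the libraries of a group share that pool is not stated. The study set Lama4-/- mice, which lack laminin α4, against their own wild type (WT), and Tek-Cre:Lama5-/- mice against a separate WT group. Laminins α4 and α5 are chains of the basement membrane around brain vessels. Tek-Cre drives recombination in endothelial cells and, as background, also in blood cells, so that Lama5 is lost in those lineages and not in the whole mouse. Whether the WT mice carried Cre or floxed alleles is not stated in the labels. Each group had 2 deposited libraries, but the files of both Lama4-/- libraries held identical values and were counted as 1 library, which left 7 distinct libraries. Nothing in the labels says that the 2 libraries of a group came from separate animals, so p-values measure the spread between libraries, which may be technical.

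In canonical Wnt signalling a secreted ligand joins a Frizzled receptor and the co-receptor Lrp5 or Lrp6, β-catenin escapes degradation, and in the nucleus it works with factors of the TCF/LEF family on target genes. In brain vessels, Wnt7a and Wnt7b from neural cells are recognised by Reck and Adgra2 (also called Gpr124), and Norrin, the product of Ndp, signals through Fzd4 with Tspan12. The pathway is needed for vessels to enter the brain and for the blood-brain barrier to form and last. Axin2 and Apcdd1 also act as inhibitors that feed back on the pathway, and Tnfrsf19 (Troy) encodes a receptor of the tumour necrosis factor family.

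TCF/LEF proteins bind DNA at the core CTTTG or its complement CAAAG. Windows of 250 bases before a transcription start were used for 6 of the 10 genes from the RefSeq promoter table (GRCm38.p6), as 11 windows. Windows of the other members, Apcdd1 among them, were not used, so the member counts given here do not cover them. Their absence here does not mean that the promoter table lacks them. The core was present in 6 of these 11 windows, belonging to 3 genes, and in 48.6% of all 32851 windows of that length. The longer form ATCAAAG, which contains CAAAG, was present in 1 of the 11 windows and in 3.21% of all windows, both strands counted. The 5 windows printed here belong to Lef1, Axin2, Fzd4, Reck and Tnfrsf19. The windows of Tcf7, which hold neither form, are not printed. Capitals mark the CTTTG or CAAAG core, and a match is a match of letters only.
Lef1, chr3:131110047-131110296, plus strand: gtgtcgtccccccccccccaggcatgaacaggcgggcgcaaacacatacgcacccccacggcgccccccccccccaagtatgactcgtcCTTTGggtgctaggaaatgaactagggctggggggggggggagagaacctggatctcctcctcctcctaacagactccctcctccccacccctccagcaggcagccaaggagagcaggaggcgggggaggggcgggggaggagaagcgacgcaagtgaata
Axin2, chr11:108920099-108920348, plus strand: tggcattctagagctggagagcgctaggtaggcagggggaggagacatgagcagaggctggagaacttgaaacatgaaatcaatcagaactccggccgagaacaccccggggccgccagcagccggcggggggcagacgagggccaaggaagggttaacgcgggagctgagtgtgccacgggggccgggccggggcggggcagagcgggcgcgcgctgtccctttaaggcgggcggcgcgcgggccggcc
Fzd4, chr7:89404116-89404365, plus strand: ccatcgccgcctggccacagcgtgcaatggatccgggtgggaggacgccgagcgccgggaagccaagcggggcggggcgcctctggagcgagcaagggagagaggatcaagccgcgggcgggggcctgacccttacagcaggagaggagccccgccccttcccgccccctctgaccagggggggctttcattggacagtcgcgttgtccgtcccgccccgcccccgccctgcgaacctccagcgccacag
Reck, chr4:43875280-43875529, plus strand: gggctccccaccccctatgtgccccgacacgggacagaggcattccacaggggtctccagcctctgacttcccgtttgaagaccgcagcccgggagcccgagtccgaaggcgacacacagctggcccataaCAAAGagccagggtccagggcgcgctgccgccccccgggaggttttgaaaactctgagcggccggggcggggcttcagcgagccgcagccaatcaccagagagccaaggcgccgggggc
Tnfrsf19, chr14:61037988-61038237, minus strand: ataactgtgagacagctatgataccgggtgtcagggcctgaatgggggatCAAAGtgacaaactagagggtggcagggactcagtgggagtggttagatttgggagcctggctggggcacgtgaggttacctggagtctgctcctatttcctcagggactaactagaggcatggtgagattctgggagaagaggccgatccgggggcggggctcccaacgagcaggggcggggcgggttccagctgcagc
The Lef1 window holds the core in the CTTTG form, the Reck window in the CAAAG form, and the Tnfrsf19 window holds the longer ATCAAAG. The windows of Axin2 and Fzd4 hold neither form. The Tnfrsf19 window lies inside the annotated gene, before the start of a shorter transcript; the other Tnfrsf19 window, chr14:61046856-61047105, holds neither form and is not printed. Of the 4 Lef1 windows, which all hold the core, 1 is printed. The printed one overlaps another, chr3:131110073-131110322, which holds the same CTTTG, so the windows counted with the core are not independent.

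All 10 members are protein-coding genes, on 9 chromosomes of GRCm38 (GENCODE M21). Fzd4 lies at chr7:89404355-89413134, Reck at chr4:43875530-43944806, Lef1 at chr3:131110471-131224356 and Adgra2 at chr8:27085583-27123436. Axin2 (chr11:108920349-108950783) and Tcf7 (chr11:52252371-52283014) share a chromosome. Lef1, Tcf7 and Reck each overlap a predicted gene on the same strand (Gm42449, Gm26551 and Gm27265), so reads in the overlap cannot be told apart, and the counting rule for such reads is not given in the sources used here.

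The 7 libraries held 35479306 to 48314458 unique molecular identifiers (UMIs, each standing for 1 captured transcript) in 56961 cell barcodes, of which 47239 cells were kept. Of these, 26475 (56.0%) were endothelial-like, meaning that they fell in clusters named from the endothelial marker list, and each library gave 2207 to 5047 such cells with 16589813 to 22050506 UMIs. No pair of libraries shared more than 23 cell barcodes, and 1717 cells (3.63%) fell in clusters left unnamed. Most endothelial-like clusters were filled by 1 of the 2 experiments: the largest, led by Adm and Ndnf (5753 cells), came mostly from the Lama5 experiment, and the cluster led by Ccdc85b and Car4 (3325 cells) mostly from the Lama4 experiment. Each knockout is therefore set only against its own WT. All levels are in CPM, the gene's UMIs per 1000000 UMIs of the same cells. Endothelial Lama4 was at 46.7 and 45.0 CPM in its WT and at 0.0589 in the Lama4-/- library, which held 1 count (exact 95% Poisson interval 0.00149 to 0.328 CPM). Endothelial Lama5 was at 41.4 and 40.8 in WT and at 23.2 and 24.9 in Tek-Cre:Lama5-/- (log2 fold change -0.77, SE 0.0612, edgeR adjusted p 1.6e-16), while in smooth muscle-like cells it was at 133 and 117 in WT and at 129 and 144 in the knockout (adjusted p 0.562). The deleted exons are not given in the sources used here, so 3′ tags outside them could still be counted. Levels in CPM by endothelial range, and those set between knockout and WT, are also scaled by TMM, which evens out composition between libraries. Levels are not per transcript length, so each gene is compared only with itself.

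Along the vessel axis, the members did not share 1 pattern. Between its ends, Lef1, Fzd4, Tnfrsf19 and Apcdd1 were higher on the venous side and Reck was far higher on the arterial side. Axin2, Adgra2, Lrp6, Tcf7 and Fzd6 moved by less between the ends. Endothelial-like cells were ordered in each library by a score, arterial markers minus venous markers, that used none of the members. The highest 15% were called the arterial range, the lowest 15% the venous range and the middle 70% the capillary range. These are ranges of a score and not cell types: 3.78% of cells lay within 0.1 SD of the arterial limit and 3.86% within 0.1 SD of the venous limit. The check list of 10 capillary genes had median scores of 0.112 to 0.251 in the capillary range and of -0.813 to -0.526 in the arterial range. In the venous range those medians were 0.00855 to 0.215, and in the Lama5 experiment they exceeded those of the capillary range. Median UMIs per cell were 4001 to 10385 in the arterial, 2296 to 5346 in the capillary and 5098.5 to 11196 in the venous range, and the part of this depth gap in the results was not tested. Differences were tested over all 7 libraries with edgeR's quasi-likelihood test, with the library as a block and Benjamini-Hochberg adjustment over 11991 genes. Of these, 53.4% passed 0.05 between venous and arterial, 50.7% between capillary and arterial (25.3% higher, 25.4% lower), and 45.6% between venous and capillary (22.8% higher, 22.9% lower). All 10 members passed between venous and arterial, 5 in each direction, where 26.9% of all genes were higher and 26.5% lower in the venous range. The median of their 10 log2 differences was 0.05, and that of all genes tested was 0.01. Between capillary and arterial, Adgra2 (log2 -0.45) and Lrp6 (-0.44) differed by about as much as Fzd4 (0.43). Apcdd1 was highest in the capillary range.

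Among the receptors, Fzd4, which binds Norrin and Wnt ligands, rose from the arterial to the venous range. It was at 182 and 173 in the 2 WT libraries of the Lama4 experiment, 175 in Lama4-/-, 251 and 254 in the WT of the Lama5 experiment and 217 and 211 in Tek-Cre:Lama5-/- in the arterial range. In the capillary range the same libraries stood at 254, 258, 244, 332, 344, 276 and 271, and in the venous range at 304, 303, 292, 388, 389, 316 and 341. The order arterial, capillary, venous held in 7 of 7 libraries, although the ranges overlapped between libraries of different experiments. The log2 difference of venous from arterial was 0.66 (SE 0.0368, adjusted p 1.49e-13), and the venous range also exceeded the capillary one (0.23, adjusted p 8.73e-06).

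Reck, the anchored protein that recognises Wnt7 ligands together with Adgra2, had the opposite order. Arterial levels were 205, 195, 194, 222, 229, 223 and 237 in the library order used for Fzd4, capillary levels were 76.6, 75.5, 62.5, 89.0, 90.6, 121 and 112, and venous levels were 48.2, 55.7, 40.8, 67.5, 66.3, 81.5 and 86.6. No arterial value overlapped a capillary or venous one, and every library fell from arterial to capillary to venous. Reck differed by -1.80 between venous and arterial (log2, SE 0.0702, adjusted p 1.66e-16) and by -0.50 between venous and capillary (adjusted p 3.18e-06). Over the 13 endothelial-like clusters Reck ran from 30.1 to 288. The lowest value rests on 7 counts in 19 cells, and the next lowest was 42.5. Reck was at 288 in the cluster led by Fbln5 and Gkn3 and at 161 in the one led by Gkn3 and Vegfc, which hold genes of the arterial list among their leading genes. The cluster led by Rad54b and Egr3 also has arterial genes among its leading genes (Sema3g, Alpl, Efnb2 and Bmx), and Reck was at 86.1 there, below the 104 and 107 of the clusters led by Adm and Ndnf and by Cxcl12 and Cdkn2aip.

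Adgra2, the partner of Reck, was at 72.9 to 98.0 in the arterial range (median 83.9), 56.9 to 73.3 in the capillary range (median 62.1) and 56.8 to 79.5 in the venous range (median 68.1). It was highest in the arterial range in 7 of 7 libraries, with a log2 difference of -0.33 for venous from arterial (SE 0.0483, adjusted p 3.53e-06). The venous range exceeded the capillary one by 0.12 (adjusted p 0.0279), and this call was lost without WT replicate 2 of the Lama4 experiment (0.11, adjusted p 0.0921), without WT replicate 1 of the Lama5 experiment (0.11, adjusted p 0.0737) without Tek-Cre:Lama5-/- replicate 2 (0.12, adjusted p 0.0675) or with no filter on low counts (0.11, adjusted p 0.0929). Lrp6, the co-receptor, stood at 110 to 129 in the arterial, 84.8 to 95.6 in the capillary and 94.6 to 111 in the venous range. Its capillary level was the lowest of the 3 in every library, and venous stayed below arterial (-0.24, SE 0.0354, adjusted p 3.45e-06). Fzd6, a Frizzled better known for planar polarity signalling, changed least, with medians of 149, 151 and 133 in the arterial, capillary and venous ranges. Fzd6 in the capillary range differed from the arterial one by -0.01 (adjusted p 0.9), and the venous range was lower than both (-0.13 against each, adjusted p 0.00702 and 0.00823).

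The nuclear factor Lef1 rose along the axis. Arterial levels were 231, 240, 249, 265, 268, 279 and 278, capillary levels were 385, 402, 402, 377, 382, 402 and 407, and venous levels were 475, 466, 463, 467, 477, 481 and 500, in the same library order. The 3 ranges did not overlap in any pair of libraries. Lef1 was higher in the venous than in the arterial range by 0.86 (log2, SE 0.0395, adjusted p 3.36e-15) and than in the capillary range by 0.26 (adjusted p 4.1e-06). Lef1 was at 21.5 (5 counts) in the 19 cells led by Plvap and Esm1, all of the Lama4 experiment, and at 490 in the cluster led by Lrg1 and Adgrg6. Tcf7, the other TCF/LEF member, had its highest level in the capillary range in 7 of 7 libraries, with medians of 58.9 in the arterial, 67.4 in the capillary and 51.7 in the venous range. Capillary exceeded arterial by 0.19 (adjusted p 0.00285) and venous fell below capillary by 0.35 (log2 -0.35, adjusted p 2.5e-06). The venous to arterial difference in Tcf7 of -0.16 (adjusted p 0.0175) was lost without Lama4-/- (-0.14, adjusted p 0.0638), without WT replicate 2 of the Lama5 experiment (-0.13, adjusted p 0.061) or without Tek-Cre:Lama5-/- replicate 1 (-0.14, adjusted p 0.0582).

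Of the target genes, Apcdd1 had the widest span along the axis. It was at 6.93, 4.28, 5.51, 8.09, 9.19, 10.9 and 8.30 in the arterial range (19 to 40 counts), at 24.4, 25.5, 22.9, 38.9, 35.6, 40.3 and 40.7 in the capillary range and at 20.2, 22.6, 17.8, 37.5, 31.0, 37.4 and 39.8 in the venous range. All arterial values lay below all others. Capillary exceeded arterial Apcdd1 by 2.09 (log2, SE 0.0839, adjusted p 3.98e-16) and venous exceeded arterial by 1.93 (SE 0.0907, adjusted p 5.7e-15). The venous level was below the capillary one in 7 of 7 libraries, by 0.16 (log2 -0.16, adjusted p 0.0255), a call lost with DESeq2 (adjusted p 0.0784), the stricter cell filter (0.0797), doublets kept (0.0728), or without WT replicate 1 of the Lama4 experiment (0.0627), Lama4-/- (0.0723) or WT replicate 2 of the Lama5 experiment (0.075); the log2 differences in these fits ran from -0.17 to -0.13.

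Axin2, the broadly used reporter of canonical Wnt signalling, followed Apcdd1 on a smaller scale. Arterial Axin2 was at 56.1, 46.5, 46.7, 73.7, 67.3, 67.3 and 74.1, capillary at 60.0, 63.0, 54.5, 92.8, 98.2, 94.6 and 98.2, and venous at 50.5, 54.4, 50, 83.7, 88.4, 99.9 and 98.3. Capillary was above arterial in 7 of 7 libraries (0.36, SE 0.0554, adjusted p 8.55e-06) and venous above arterial in 6 of 7 (0.24, SE 0.059, adjusted p 0.00125). Between venous and capillary Axin2 differed by -0.11 (adjusted p 0.0771), and 5 alternatives called this difference, one of them the fit without Tek-Cre:Lama5-/- replicate 1 (-0.15, adjusted p 0.0216). Tnfrsf19 rose in 7 of 7 libraries from the arterial range (68.2 to 94.9, median 79.4) to the capillary (106 to 130, median 118) and the venous range (121 to 146, median 139). The venous to arterial difference in Tnfrsf19 was 0.73 (SE 0.0416, adjusted p 2.31e-13).

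**Figure D1:**
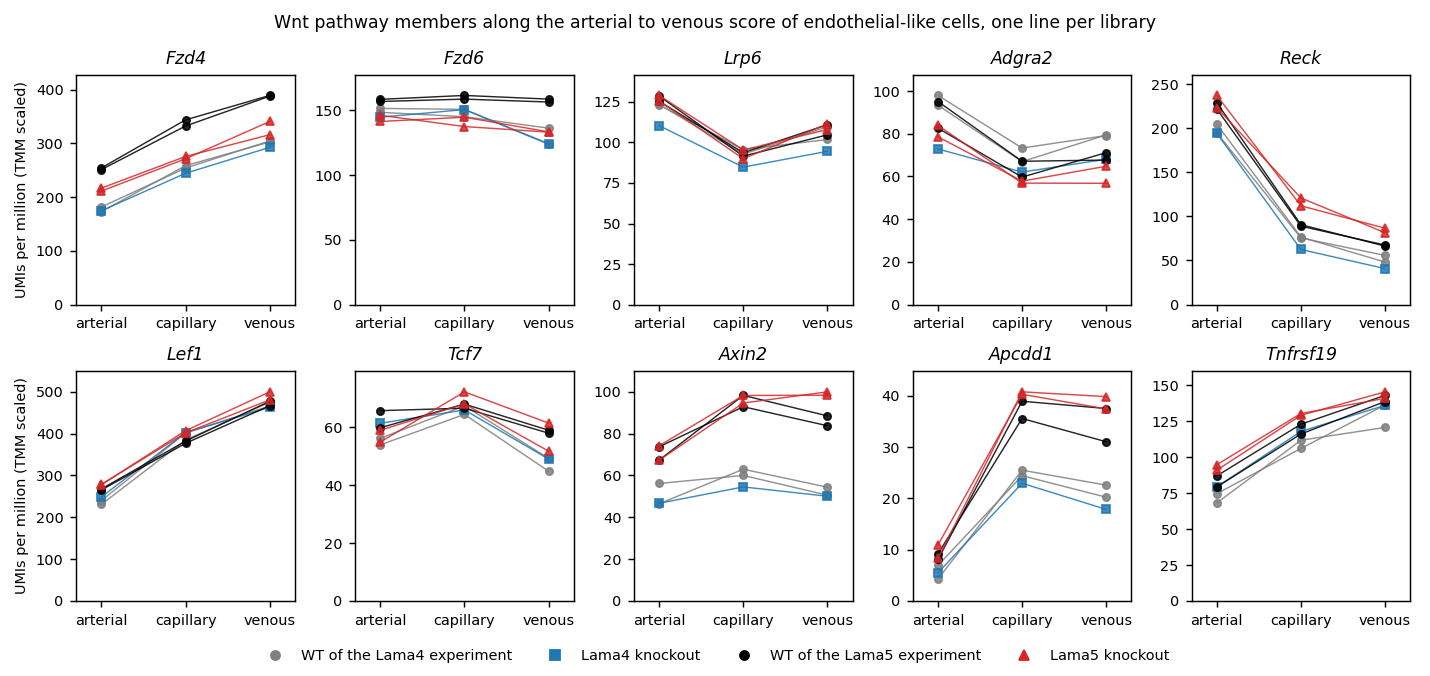
Levels of the 10 members in CPM (TMM scaled, linear axis from 0) in the arterial, capillary and venous ranges, with 1 line for each of the 7 libraries coloured by group. Lef1 rises from 231 to 279 in the arterial range to 463 to 500 in the venous range, Reck falls from 194 to 237 to 40.8 to 86.6, and Apcdd1 is lowest in the arterial range in every library.

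Across the cell classes compared, most members were lower than in endothelial-like cells, but by widely differing amounts. Each class was named from markers, hence pericyte-like, smooth muscle-like, astrocyte-like, microglia-like and perivascular macrophage-like. All of these had at least 50 cells in every library, and each was set against the endothelial-like cells of the same library over 12724 genes. Oligodendrocyte-like cells (4174 in all) had 47 in the Lama4-/- library and were not compared, nor were the remaining named classes. Of the 50 resulting differences 48 passed 0.05, with 47 lower and 1 higher than in endothelial-like cells. The share of all genes that passed was 57% in pericyte-like, 64.1% in smooth muscle-like, 75.4% in astrocyte-like, 72.2% in microglia-like and 56.1% in perivascular macrophage-like cells. In the lower direction those shares were 33%, 33.9%, 39.5%, 39.3% and 32.2%, against 9, 10, 9, 10 and 9 of the 10 members. The scaling bears on these counts. Without TMM, the median over all genes moved from -0.10 to 0.24 for pericyte-like cells (3061 higher and 4195 lower calls became 4688 and 2814) and from -0.05 to 0.16 for astrocyte-like cells (4568 and 5023 became 5270 and 4123). For smooth muscle-like cells that median moved from -0.07 to -0.17 (3833 and 4318 became 3367 and 4900), and for microglia-like cells from -0.07 to -0.18. With the size factors of DESeq2 the astrocyte-like split was 5826 higher and 3925 lower, and that of pericyte-like cells 4505 and 3179.

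Free RNA reaches every droplet, and the endothelial marker list gives its scale. In the same library, that list stood at 0.838% to 2.17% of its endothelial level in pericyte-like cells, 0.600% to 1.68% in smooth muscle-like, 0.688% to 2.59% in astrocyte-like, 0.497% to 0.880% in microglia-like and 1.66% to 5.24% in perivascular macrophage-like cells. A member near those shares is read as background there, and class levels carry no TMM. In pericyte-like cells the median share of the endothelial level was 113% for Axin2, 91.7% for Fzd6, 89.5% for Adgra2, 72.1% for Lrp6 and 66.7% for Tnfrsf19. It was 33.2% for Apcdd1, 28.4% for Reck, 27.8% for Tcf7, 8.84% for Lef1 and 5.19% for Fzd4.

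Lef1 was at 369 to 424 in endothelial-like cells (median 377), at 22.0 to 52.6 in pericyte-like and 16.3 to 23.4 in astrocyte-like cells. In smooth muscle-like cells it was at 1.30 to 5.81, a median of 0.997% of the endothelial level, and in microglia-like cells at 0.601 to 2.57, a median of 0.463%, both no higher than the scale of free RNA. The log2 differences of Lef1 from endothelial-like cells ran from -3.75 in pericyte-like to -7.44 in microglia-like cells. Tcf7 was at 56.7 to 66.3 in endothelial-like cells and at 10.1 to 34.1 in pericyte-like and 3.39 to 15.7 in smooth muscle-like cells. Both Tcf7 and Lef1 are also known from lymphocytes, and the T or NK-like cells, described only, held 109 to 332 of Tcf7 and 90.3 to 421 of Lef1.

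Fzd4 was at 254 to 331 in endothelial-like cells and next highest of the 6 classes compared in smooth muscle-like cells (63.4 to 99.0), with no overlap. In pericyte-like cells, which sit on the same capillaries, Fzd4 was at 9.39 to 20.6 from 4 to 15 counts, a log2 difference of -4.60 (SE 0.174, adjusted p 1.71e-26). Fzd6 had the opposite pattern in mural cells: it was at 126 to 157 in endothelial-like, 103 to 173 in pericyte-like and 2.53 to 13.8 in smooth muscle-like cells. Its difference between pericyte-like and endothelial-like cells was -0.40 (SE 0.146, adjusted p 0.0185). That call was lost with DESeq2 (-0.17, adjusted p 0.431), RLE factors (-0.17, 0.339), no TMM (-0.064, 0.754), the stricter cell filter (-0.35, 0.0525) and without Tek-Cre:Lama5-/- replicate 2 (-0.28, 0.109).

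Lrp6 was found well above background in every class compared. It was at 95.8 to 110 in endothelial-like cells (median 102), and at 60.8 to 100, 44.1 to 71.9, 48.5 to 98.6 and 46.9 to 69.7 in pericyte-like, smooth muscle-like, astrocyte-like and microglia-like cells. Perivascular macrophage-like cells held 186 to 400 of Lrp6 (37 to 234 counts, median 297), above every endothelial value. That was the 1 difference in the higher direction (1.62, SE 0.111, adjusted p 3.91e-17), where 23.9% of all genes were higher.

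Adgra2 was at 57.6 to 84.6 in endothelial-like, 52.6 to 75.5 in pericyte-like and 36.4 to 49.5 in smooth muscle-like cells, and at most 4.27 in astrocyte-like cells. Its difference between pericyte-like and endothelial-like cells of -0.46 (adjusted p 0.00684) was lost with DESeq2 (-0.23, 0.173), RLE factors (-0.23, 0.184) and no TMM (-0.12, 0.516). Reck, its partner, was at 92.5 to 121 in endothelial-like cells and at 13 to 42.6, 16.2 to 31.6 and 11.4 to 38.5 in pericyte-like, smooth muscle-like and astrocyte-like cells, with -2.15 in both mural classes (adjusted p 2.91e-15 and 1.3e-18).

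Axin2 in pericyte-like cells overlapped with endothelial-like cells: 68.1 to 97.4 (29 to 71 counts) against 56.7 to 87.4. The difference of -0.14 (SE 0.15, adjusted p 0.45) did not pass, and its sign turned to between 0.08 and 0.20 with DESeq2, RLE factors and no TMM. Smooth muscle-like cells held 16.2 to 45.2 of Axin2 and astrocyte-like cells 24.0 to 37.5. Tnfrsf19 was at 111 to 126 in endothelial-like and at 105 to 151 in astrocyte-like cells, a difference of -0.16 (SE 0.128, adjusted p 0.266) that turned positive with DESeq2, RLE factors and no TMM. It passed as lower with no filter on low counts (-0.31, adjusted p 0.0269) and at clustering resolution 2 (-0.28, adjusted p 0.0434). Apcdd1 was at 19.7 to 31.2 in endothelial-like cells, 5.54 to 15.1 in pericyte-like and 2.11 to 6.01 in smooth muscle-like cells, and at most 2.86 in the other 3 classes.

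**Figure D2:**
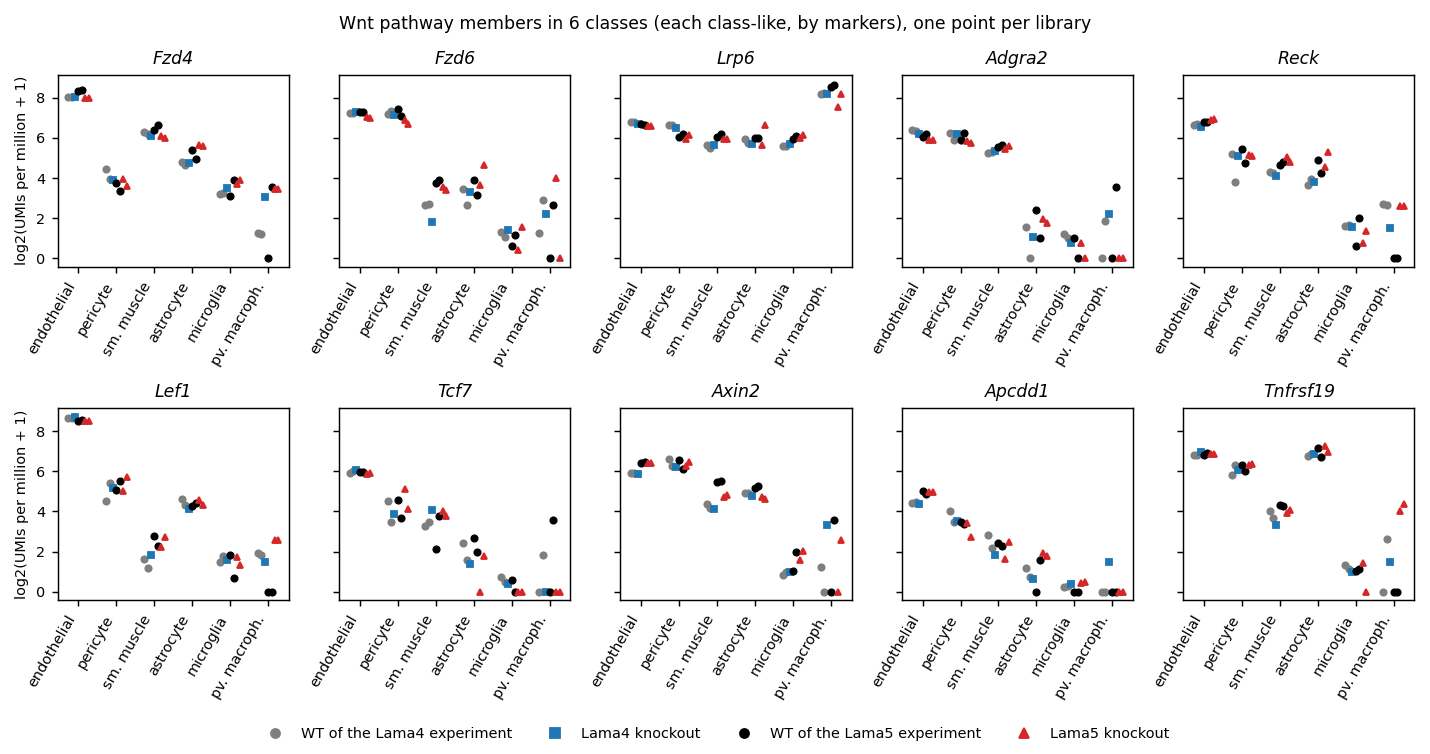
Levels of the 10 members in the 6 marker-named classes, as log2 of CPM plus 1 (no TMM), with 1 point for each of the 7 libraries coloured by group. Lrp6 is highest in perivascular macrophage-like cells (186 to 400), Axin2 overlaps between pericyte-like (68.1 to 97.4) and endothelial-like cells (56.7 to 87.4), and Lef1 is at most 5.81 in smooth muscle-like cells.

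In endothelial-like cells of Tek-Cre:Lama5-/- mice, Fzd4, Fzd6 and Adgra2 were lower than in WT and Reck and Lef1 were higher. These 5 of 10 members passed 0.05 in edgeR's quasi-likelihood test over 13185 genes, of which 20.3% passed. By direction, 2 members rose where 11.3% of all genes did, and 3 fell where 9.06% did. Without TMM the calls over all genes turned from 1484 higher and 1195 lower to 817 and 2998, and the median over all genes moved by -0.079. DESeq2 called 3 of the 10, Fzd4, Fzd6 and Reck. The median log2 fold change of the members was 0.03 and that of all genes -0.00062.

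Fzd4 was at 314 and 322 in the 2 WT libraries and at 261 and 263 in the 2 knockout libraries. Both knockout values lay below both WT values, and Fzd4 fell by 0.28 on the log2 scale (SE 0.025, adjusted p 1.81e-14). Fzd6 was at 150 and 153 in WT and at 133 and 130 in the knockout, again without overlap, and fell by 0.20 (SE 0.0312, adjusted p 5.99e-07). Adgra2 was at 64.6 and 69.7 in WT and at 59.0 and 60.7 in the knockout, and fell by 0.17 (SE 0.0453, adjusted p 0.00458). That call for Adgra2 was lost with DESeq2 (adjusted p 0.151), without WT replicate 2 (-0.11, adjusted p 0.179) and without knockout replicate 1 (-0.15, adjusted p 0.0597).

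Reck moved the other way from its partner Adgra2. It was at 107 in both WT libraries and at 123 and 124 in the knockout, and rose by 0.21 (SE 0.0337, adjusted p 1.44e-06). Lrp6 was at 100 and 98.1 in WT and at 98.1 and 100 in the knockout, with overlapping values and a log2 fold change of -0.0004 (SE 0.0362, adjusted p 0.996). Of the nuclear factors, Lef1 was at 359 and 367 in WT and 379 and 383 in the knockout. Its log2 fold change of 0.07 (SE 0.0232, adjusted p 0.0229) turned to -0.0091 without TMM. The Lef1 call was also lost with DESeq2 (adjusted p 0.102), with no filter on low counts (0.142), with doublets kept (0.0511), and without WT replicate 1 (0.05, adjusted p 0.231), knockout replicate 1 (0.07, 0.0879) or knockout replicate 2 (0.06, 0.187). Tcf7 was at 60.8 and 61.0 in WT and at 58.0 and 61.8 in the knockout (-0.03, adjusted p 0.764).

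None of the 3 target genes passed. Axin2 was at 82.2 and 84.9 in WT and at 85.7 and 87.9 in the knockout (0.05, SE 0.0388, adjusted p 0.359). Apcdd1 was at 30.3 and 27.5 against 31.6 and 31.6 (0.13, SE 0.0628, adjusted p 0.144). Tnfrsf19 was at 109 and 115 against 120 and 119 (0.09, SE 0.0346, adjusted p 0.0643), and passed without WT replicate 2 (0.13, adjusted p 0.0254). Counted by library, 5 members (Lef1, Axin2, Apcdd1, Reck, Tnfrsf19) had both knockout libraries above both WT libraries and 3 (Fzd4, Fzd6, Adgra2) had both below, where 57.2% of all genes showed no overlap (28.4% higher and 28.8% lower).

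Several measures moved with genotype in these endothelial-like cells. The transcript Gm42418, which overlaps ribosomal RNA, took 3.58% and 3.51% of UMIs in WT and 6.42% and 7% in the knockout, and median UMIs per cell were 3305 and 3173 against 2819 and 2599. All 8 microglial markers were higher in both knockout libraries (sum 92.7 and 91.2 against 115 and 116 CPM), and all 8 astrocyte markers (178 and 177 against 136 and 136) and all 8 oligodendrocyte markers (337 and 358 against 297 and 304) were lower. Of 8 erythroid markers 6 were lower (462 and 481 against 197 and 183). Of 10 endothelial markers 7 were lower and 2 higher (sum 17740 and 17647 against 17005 and 16876). Lama4 was at 29.1 and 30.8 in WT and at 51.0 and 47.6 in the knockout (0.72, SE 0.0559, adjusted p 7.57e-17). Cells per cluster shifted too. A cluster led by Emp1 and Nos1 met 10 endothelial markers but was left unnamed, because it also met pericyte markers. It held 4 and 8 WT cells against 65 and 65 knockout cells. The cluster led by Adm and Ndnf held 1648 and 1704 WT cells against 1224 and 1167, and that led by Plk2 and Sertad1 held 753 and 770 against 903 and 1015. The part of these measures and shifts in the members' differences was not tested.

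**Figure D3:**
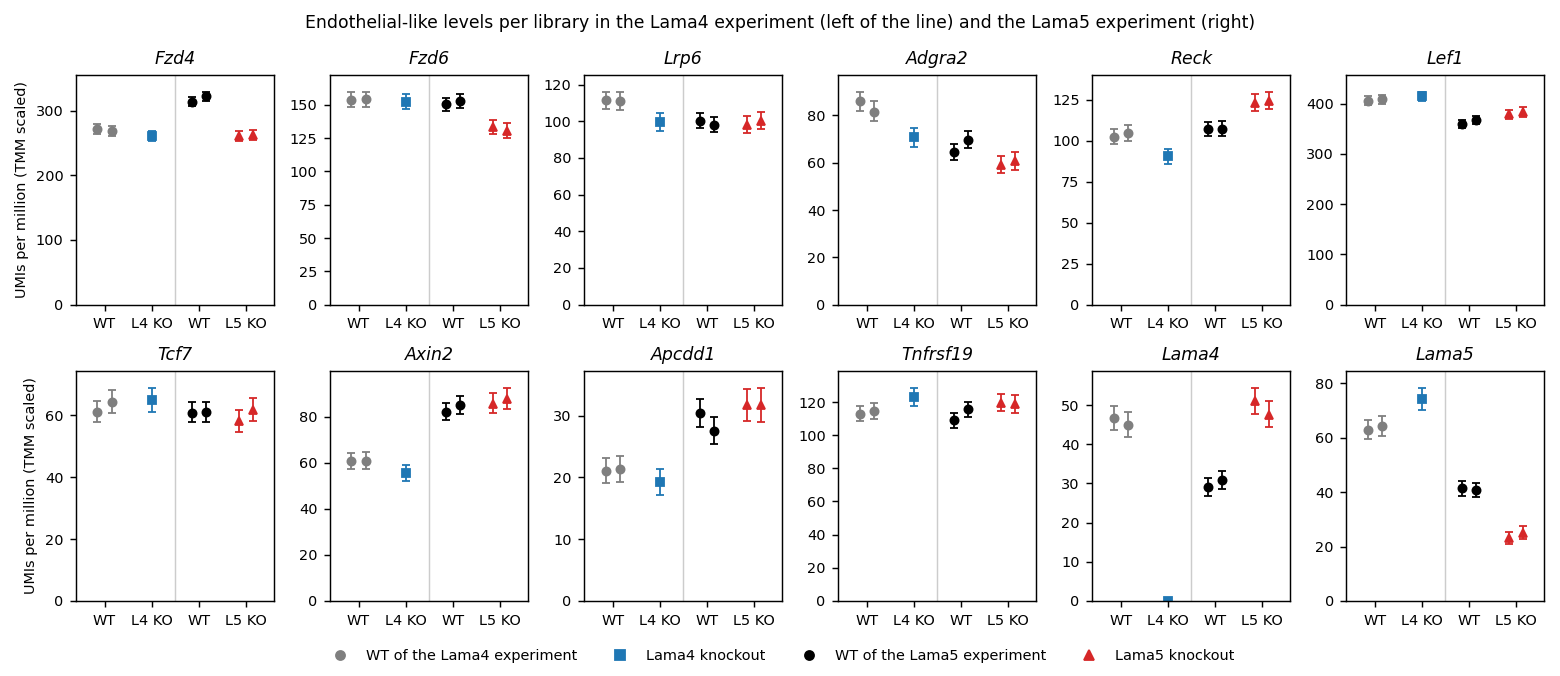
Endothelial-like levels of the 10 members and of Lama4 and Lama5, in CPM (TMM scaled within each experiment), 1 point per library with its exact 95% Poisson interval, which covers counting error only. In the Lama5 experiment Fzd4 is at 261 and 263 in the knockout against 314 and 322 in WT; in the Lama4 experiment the knockout is 1 library and no member reached the size rule.

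Within the arterial, capillary and venous ranges, Fzd4 fell in Tek-Cre:Lama5-/- in all 3, and Reck and Fzd6 passed in the capillary and venous ranges. In the arterial range 1 member passed, where 6.76% of 10696 genes did (4.11% higher, 2.65% lower): Fzd4, from 251 and 254 to 217 and 211 (-0.25, SE 0.0572, adjusted p 0.000666). In the capillary range 4 passed, where 13.9% of 12132 genes did (7.62% higher, 6.26% lower). Capillary Fzd4 went from 332 and 344 to 276 and 271 (-0.32, SE 0.0318, adjusted p 4.14e-21), Reck from 89.0 and 90.6 to 121 and 112 (0.37, SE 0.0499, adjusted p 1.18e-11), and Fzd6 from 159 and 162 to 145 and 138 (-0.19, SE 0.0421, adjusted p 0.00011). Lef1 rose by 0.08 (adjusted p 0.0403), a call that was lost in 11 alternatives, each of the 4 fits without 1 library among them (0.07 to 0.09, adjusted p 0.0696 to 0.278), and that turned to -0.0078 without TMM. In the venous range 3 passed, where 10.5% of 11132 genes did (6.37% higher, 4.11% lower). Venous Fzd4 went from 388 and 389 to 316 and 341 (-0.26, SE 0.0399, adjusted p 7.81e-06), Fzd6 from 156 and 159 to 133 and 133 (-0.26, SE 0.0548, adjusted p 0.000919), and Reck from 67.5 and 66.3 to 81.5 and 86.6 (0.31, SE 0.0751, adjusted p 0.00412). The venous Reck call was lost with DESeq2 (adjusted p 0.0985) and with 10% at each end (0.24, adjusted p 0.0862). Adgra2 passed as lower without WT replicate 1 in the capillary range (-0.24, adjusted p 0.0214) and without knockout replicate 2 in the venous range (-0.30, adjusted p 0.0382).

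The difference of the knockout effect between the venous and arterial ranges was tested with an interaction term. None of the 10 members passed in edgeR, where 0.464% of 11845 genes did; 1 had an unadjusted p under 0.05, and DESeq2 called 0 of the 2 members to which it gave an adjusted p. That 1 was Reck, with arterial levels of 222 and 229 in WT and 223 and 237 in the knockout (0.02, SE 0.0576) against 0.31 in the venous range, an interaction of 0.29 (SE 0.0938, adjusted p 0.199). The interaction was -0.02 (SE 0.0658) for Fzd4 and -0.12 (SE 0.0854) for Fzd6.

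**Figure D4:**
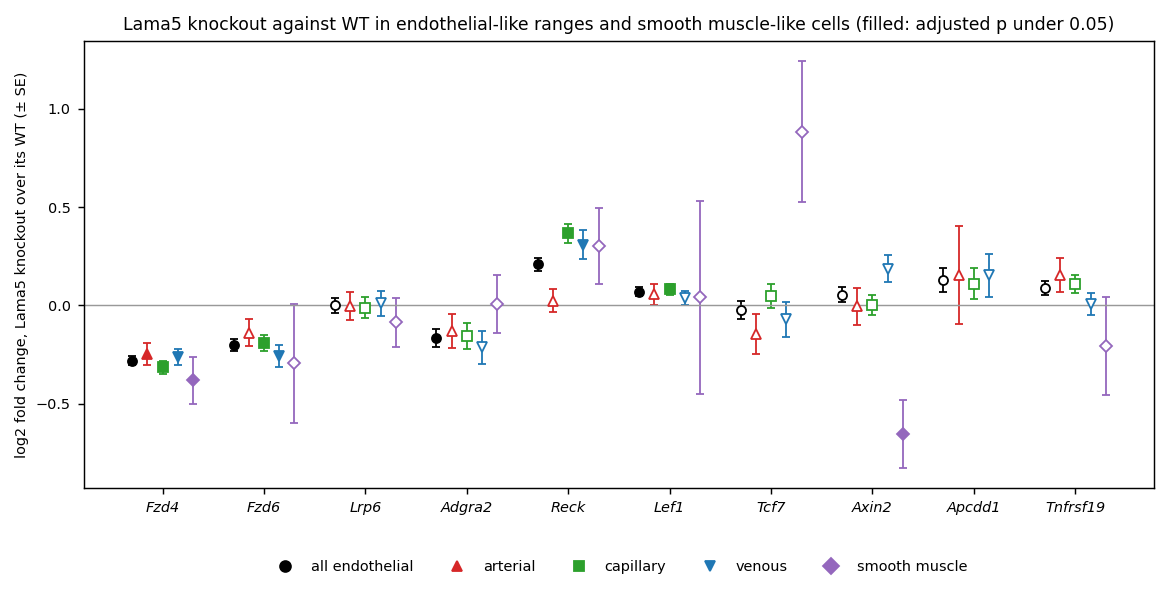
Log2 fold change of Tek-Cre:Lama5-/- over its WT (± SE) for the 10 members in all endothelial-like cells, in the 3 ranges and in smooth muscle-like cells, filled where the adjusted p is under 0.05. Fzd4 is lower in all 5 sets (-0.25 to -0.38), and Reck is higher in the capillary (0.37) and venous (0.31) ranges, with 0.02 in the arterial range.

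Outside the endothelium, 2 members passed in the Lama5 knockout, both in smooth muscle-like cells, where Lama5 itself did not pass: Axin2 and Fzd4 were lower there. Of the 9 members tested in that class these were 2, where 5.67% of 9682 genes passed (4.35% higher, 1.32% lower). Axin2 was at 42.1 and 43.7 in WT and at 26.1 and 28.5 in the knockout, without overlap (-0.65, SE 0.173, adjusted p 0.0148). Fzd4 was at 80.5 and 95.7 in WT and at 69.6 and 65.7 in the knockout (-0.38, SE 0.119, adjusted p 0.0495).

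The Axin2 call in smooth muscle-like cells was lost with no filter on low counts (-0.67, adjusted p 0.0751), without WT replicate 2 (-0.62, 0.0728) and without knockout replicate 1 (-0.59, 0.137). The Fzd4 call was lost with DESeq2 (adjusted p 0.277), no filter (0.192), doublets kept (0.0808), and without WT replicate 2 (-0.25, 0.447), knockout replicate 1 (-0.42, 0.0946) or knockout replicate 2 (-0.34, 0.197). DESeq2 gave an adjusted p to 2 of these 9 members, Fzd4 among them but not Axin2, and called 0. Tcf7 was at 3.28 and 12.4 in WT and 15.8 and 13.4 in the knockout, from 7 to 31 counts per library in the series (0.88, SE 0.36, adjusted p 0.164). It passed without WT replicate 2 (2.14, adjusted p 0.00406), which leaves the low replicate 1 as the only WT library. In the same cells, 6 of 8 microglial markers were higher in both knockout libraries (sum 82.3 and 81.9 against 112 and 121). The pericyte list summed to 11314 and 11110 against 9675 and 10184, and the endothelial list to 189 and 221 against 285 and 135. The part of these in the result was not tested.

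In the other classes edgeR called none: 0 of 7 members in pericyte-like (0.593% of 6071 genes passed), 0 of 6 in astrocyte-like (1.71% of 8088), 0 of 2 in microglia-like (12.6% of 9415) and 0 of 1 in perivascular macrophage-like cells (0.919% of 3156). At an unadjusted p under 0.05 those counts were 0, 0, 0 and 1, the 1 being Lrp6 in perivascular macrophage-like cells (-0.62, SE 0.229, adjusted p 0.237). DESeq2 also called 0 in each class, of the 5, 1, 1 and 0 members to which it gave an adjusted p. Fzd4, Tcf7 and Apcdd1 did not pass the filter on low counts in pericyte-like cells and were not tested there. With SEs of 0.208 to 0.403 in pericyte-like cells, a log2 change of 0.28 was not detectable at this depth. That is the size of the endothelial change in Fzd4.

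In the Lama4-/- library no member reached the size rule set for this comparison, a log2 ratio of at least 0.3 with a value outside both WT libraries. Over all 9638 genes at 5 CPM or more, 7.21% did. There is 1 knockout library, so no p-value can be given. The ratios used a pseudocount of 0.5 CPM. Adgra2 had the largest, -0.24: it was at 85.9 and 81.6 in WT and at 70.7 in the knockout, whose 95% Poisson interval of 66.8 to 74.8 lay below those of both WT libraries. Reck was at 102 and 104 in WT and at 90.4 in the knockout (-0.19), and Lrp6 at 111 and 111 against 99.4 (-0.16).

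Apcdd1 was at 21.1 and 21.3 in WT and at 19.2 in the Lama4-/- library (-0.14), and Axin2 at 60.7 and 61.0 against 55.4 (-0.13). Tnfrsf19 was at 113 and 114 in WT against 123 (0.11), Tcf7 at 61.0 and 64.3 against 64.8 (0.05), and Lef1 at 406 and 409 against 414 (0.02). Fzd4, at 271 and 268 against 260 (-0.05), and Fzd6, at 154 and 154 against 152 (-0.02), differed by less, and Fzd6 turned to 0.03 without TMM and to 0.01 with doublets kept. The knockout lay below both WT libraries for 7 members and above both for 3, where 78.8% of all genes lay outside (39.1% below and 39.7% above).

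The 2 WT groups, both labelled WT but from different experiments, differed in 8 members, 7 higher and 1 lower in the WT of the Lama5 experiment, where 56% of 13287 genes passed (29.2% higher, 26.9% lower). In the WT of the Lama5 experiment Axin2 was higher by 0.63 (SE 0.0407, adjusted p 4.88e-09), Apcdd1 by 0.62 (SE 0.0676, adjusted p 1.68e-06) and Fzd4 by 0.41 (SE 0.029, adjusted p 1.48e-08). Reck (0.22), Fzd6 (0.15), Tnfrsf19 (0.15) and Tcf7 (0.13) were also higher and Adgra2 (-0.15) was lower. For Axin2, Apcdd1, Fzd4, Reck, Tnfrsf19 and Tcf7 the gap between WT groups exceeded either knockout's difference from its own WT in size, for Reck by little (0.22 against 0.21 and -0.19). Experiment, pool of mice, any Cre or floxed alleles of the WT mice and the clusters the cells came from cannot be told apart here. The scaling mattered: without TMM the median over all genes moved by -0.112 and 3875 higher and 3568 lower calls became 2812 and 5221. Lef1 and Lrp6, at 0.00 with TMM, then passed as lower (-0.11 each), and the calls for Fzd6, Tnfrsf19 and Tcf7 were lost. Calls were also lost without 1 library for Adgra2 (without WT replicate 1 of the Lama5 experiment, -0.10, and with DESeq2, -0.15), Tnfrsf19 (without its replicate 2, 0.11) and Tcf7 (without WT replicate 1 of the Lama4 experiment, 0.08, or either WT library of the Lama5 experiment, 0.13 each), the last also with DESeq2 (0.13, adjusted p 0.14) and with no filter on low counts (0.12, adjusted p 0.0599).

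Around the members, 93 other genes of the pathway and of the barrier programme were followed by role. The ligands known to act on brain vessels were found in astrocyte-like cells: Wnt7a at 12 to 42.7, Wnt7b at 33.7 to 65.9 and Ndp at 33.7 to 43.1 CPM, against at most 0.35, 0.344 and 0.295 in endothelial-like cells. Of the Fzd4 partners, Tspan12 was at 61.1 to 88.9 in endothelial-like and at 113 to 148 in smooth muscle-like cells, and Lrp5, the other co-receptor, at 34.9 to 43.6 in endothelial-like cells. Ctnnb1, which encodes β-catenin, was at 635 to 860 in endothelial-like cells and at most 240 in the other 5 classes compared. Tcf7l2, a nuclear factor of the family, had its highest levels in astrocyte-like (113 to 147) and microglia-like cells (52.5 to 162), against 36.2 to 57.9 in endothelial-like cells.

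Along the axis (venous against arterial, where 26.9% of all genes were higher and 26.5% lower), 2 of 4 tested ligand genes were higher and 2 lower, and 6 of 7 tested inhibitors were higher and 1 lower. Receptors split into 1 higher and 5 lower of 10, cytoplasmic genes into 3 and 2 of 13, nuclear genes into 3 and 4 of 9, and barrier genes into 7 and 5 of 14. Wnt5a, a ligand of mostly non-canonical signalling, was at 7.87 to 32.3 in the arterial, 11.3 to 33.8 in the capillary and 170 to 225 in the venous range (3.29, SE 0.14, adjusted p 8.05e-16). Wnt5b and Wnt11 were lower in the venous range (-4.57 and -3.10, adjusted p 9.38e-20 and 2.26e-11). The pathway inhibitors Nkd2 (2.52) and Nkd1 (1.5) were higher there; Nkd2 was at 7.12 to 11.3 in the arterial, 1.61 to 2.94 in the capillary and 39.8 to 69.1 in the venous range.

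Dkk2, a secreted modulator of Lrp5 and Lrp6, was at 11.2 to 28.6 in the arterial range and at 0 to 0.168 in the venous range, with at most 1 count per venous library (adjusted p 2.5e-15). Plvap, a gene of fenestrated vessels, was also lower (-3.23, adjusted p 0.00162, from 79 arterial and 11 venous counts in all), as were Fzd3 (-1.63, adjusted p 3.8e-10) and Tle2 (-1.44, adjusted p 1.73e-07), and Fgfbp1 was higher (2.51, adjusted p 1.77e-05). Of the genes followed whatever they showed, Tspan12 (-0.33, adjusted p 7.24e-06), Lrp5 (-0.19, adjusted p 0.00955) and Tcf7l2 (-0.19, adjusted p 0.00633) were lower in the venous than in the arterial range, and Ctnnb1 differed by -0.09 (adjusted p 0.0856).

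**Figure D5:**
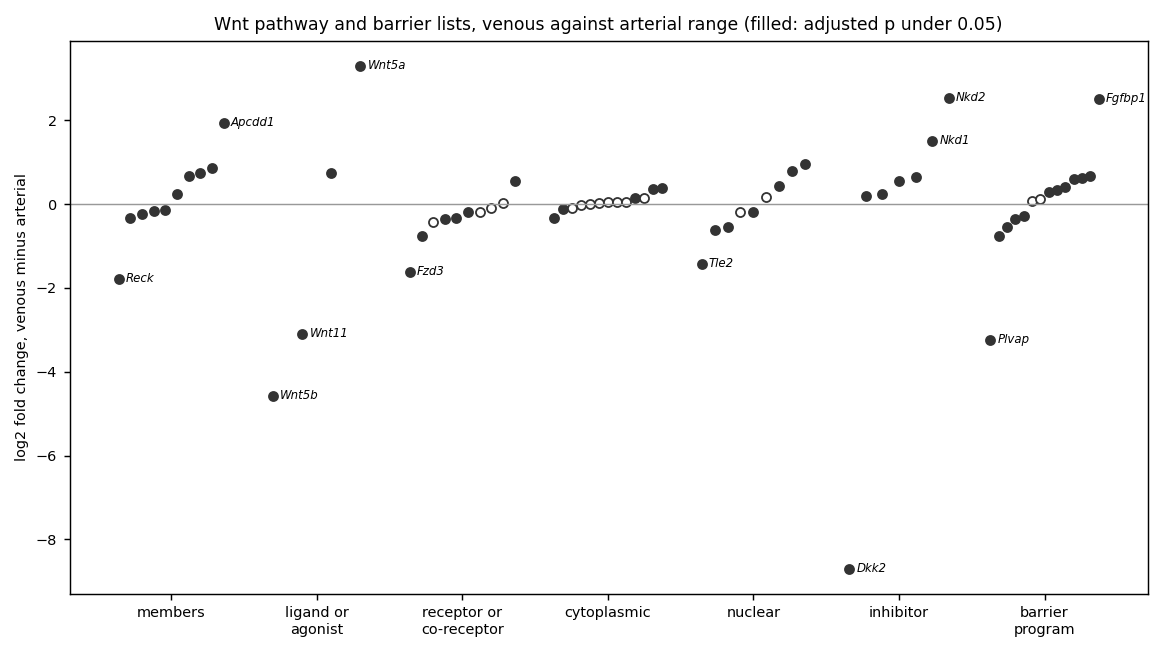
Log2 fold change of the venous over the arterial range for the members and the 6 other lists, 1 point per gene tested, filled where the adjusted p is under 0.05. All 10 members are filled, 5 above and 5 below 0, and the lowest point is Dkk2, which had at most 1 count in a venous library, so that its fitted value is no measure of size.

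The capillary range was set against both ends in the same fit. Against the arterial range, where 25.3% of all genes were higher and 25.4% lower, 10 of 14 barrier genes were higher and 2 lower, and 0 of 4 ligands were higher and 2 lower. Wnt5b (-4.06), Wnt11 (-2.88), Nkd2 (-1.99), Bcl9l (-1.32) and Fzd1 (-1.02) were lower in the capillary range, and Fgfbp1 (2.94), Plvap (1.75), Nkd1 (1.47) and the secreted inhibitor Notum (0.89) were higher, with adjusted p of at most 0.000612, although 1 library held 407 of the 726 capillary counts of Plvap. Dkk2, at 0.0901 to 0.807 in the capillary range, was lower as well (adjusted p 5.83e-16). Against the capillary range, the venous range was higher in Nkd2 (4.51), Wnt5a (3.14) and Tcf7l1 (1.49). It was lower in Plvap (-4.98), Tle2 (-1.48), Mfsd2a (-1.23), Fzd3 (-0.81), Fzd2 (-0.74) and Notum (-0.70), with adjusted p of at most 0.0301. Mfsd2a, the lipid transporter of the barrier, belongs to the capillary check list, which did not enter the score.

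In Tek-Cre:Lama5-/- endothelial-like cells 18 of the other 60 pathway genes tested passed, where 20.3% of all genes did (11.3% higher, 9.06% lower). Of those tested, 3 of 5 ligands were higher and none lower, 1 of 11 receptors was higher and 2 lower, 2 of 13 cytoplasmic genes were lower, 2 of 9 nuclear genes were higher, and barrier genes split into 4 higher and 4 lower of 14. Of the 8 inhibitors 0 passed. Wnt11 (0.71, adjusted p 0.0165), Wnt4 (0.46, adjusted p 0.00517) and Wnt5a (0.24, adjusted p 1.78e-05) were the ligands. Wnt4 was at 5.87 and 6.45 in WT and 7.70 and 9.28 in the knockout, and Wnt5a at 65.7 and 73.5 in WT and 85.6 and 78.6 in the knockout. Fzd5 rose (0.48, adjusted p 2.76e-07) from 18.5 and 18.8 to 27.2 and 24.8, and Fzd3 fell (-0.37, adjusted p 0.00076) from 16.7 and 16.7 to 12.7 and 13.1. Tle3 (0.39), Bcl9 (0.33) and Dvl1 (-0.25) also passed.

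Lrp5 fell from 39.0 and 42.3 to 35.7 and 36.0 (-0.18, adjusted p 0.0156) and Ctnnb1 from 710 and 721 to 676 and 655 (-0.10, adjusted p 5.98e-05), while Tspan12 (-0.03, adjusted p 0.71) and Tcf7l2 (-0.10, adjusted p 0.145) did not pass. In the interaction of range and knockout 1 of the list genes passed, the tight junction gene Cldn5 (-0.15, adjusted p 0.00463), which is also a marker used to name the endothelial-like clusters. In smooth muscle-like cells Tnfrsf21 (-0.47) and Wnt5b (-0.46) fell and Csnk1a1 (0.33) rose.

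Of the list genes past the threshold or the size rule, Plvap had the largest difference in both knockouts. It was at 0.265 and 0.363 in WT (6 and 8 counts) and at 2.55 and 2.71 in Tek-Cre:Lama5-/- (3.04, SE 0.347, adjusted p 1.08e-10), and at 9.78 and 3.80 in WT against 26.3 in Lama4-/- (log2 ratio 1.88). Markers of the choroid plexus, whose vessels are fenestrated, moved in the same direction in endothelial-like cells: their sum was 2.09 and 2.66 against 89.1 and 82.1 in the Lama5 experiment, with 6 of 8 higher in both knockout libraries, and 157 and 102 against 1040 in the Lama4 experiment. The 19 cells led by Plvap and Esm1 were 3 and 4 cells of the WT libraries and 12 of the Lama4-/- library. No cell of the Lama5 experiment was among these 19. When endothelial-like cells were clustered by themselves, a sub-cluster led by Plvap and Rbp7 held cells of both experiments. It had 4 and 2 WT cells against 15 of Lama4-/-, and 0 and 0 WT cells against 4 and 3 of Tek-Cre:Lama5-/-. The part of the 19 cells in the Lama4-/- difference, and of the sub-cluster and the choroid plexus markers in either, was not tested. In Lama4-/- the other list genes past the size rule were Amer1 (0.40, from 15.6 and 15.1 to 20.4) and Bcl9l (-0.33, from 31.9 and 33.3 to 25.9).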

How the data were processed

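Single-cell libraries of digested, myelin-depleted mouse cortex (papain, DNase and Liberase; Chromium 3′ v3 kit, per the labels' protocols) were deposited by the authors as raw UMI counts per gene and cell. Cell Ranger, Seurat 3.1 and mm10 are named in the submitters' processing notes, without their roles; the matrix software version in the file headers is 3.1.0. Whether doublets were removed before deposit is not given in the sources used here.

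Cells needed at least 500 genes and under 15% mitochondrial UMIs (4352 barcodes had too few genes and 2355 failed on mitochondrial UMIs alone). Scores against simulated doublets removed 3015 more, at 0.8% per 1000 cells. Clusters came from 2000 variable genes without the members, the pathway lists, Lama4, Lama5 and sex-linked genes, 30 principal components, 15 neighbours and the Leiden method at resolution 1 (igraph 0.11.9, Python 3.11.15): 45 clusters, 13 of them endothelial-like and 8 unnamed. A name needed 3 markers found in 25% of cells and raised 2-fold, and leading genes not mostly of another class. Genes of the arterial, capillary and venous lists counted as endothelial there, a choice made after the clusters had been seen and before the members' values.

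Counts were summed per library and class or range and tested with edgeR 4.0.16 (filterByExpr, TMM, quasi-likelihood; R 4.3.3) with Benjamini-Hochberg adjustment over all genes tested, and with DESeq2 1.42.0 as an alternative. Contrasts within libraries had the library as a block. Replicate numbers did not pair samples. Other alternatives were scaling, no filter on low counts, stricter cells (1000 genes, 10% mitochondrial), doublets kept, resolution 2, 10% ends, sub-clusters as ranges and each library left out. The code was tested on simulated data. Poisson intervals cover counting error only. The members and lists were chosen with earlier results of these data known. Named were all members, up to 10 other list genes past the threshold per comparison with the largest change, and the levels of Wnt7a, Wnt7b, Ndp, Lrp5, Tspan12, Ctnnb1 and Tcf7l2; 1 gene that the rule names is not reported here. Genes were placed by GENCODE M21, which held 99.9% of the gene IDs.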

Additional observations from a re-analysis of the deposited data

Results flagged for a closer look

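These results are listed because the libraries of one contrast moved one way while those of another contrast moved the opposite way. How often other genes do the same was not counted. In each case the difference between the contrasts was not tested, and the Lama4-/- side is 1 library.

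In endothelial-like cells, 3 members lay above both WT libraries in Tek-Cre:Lama5-/- and below both in Lama4-/-. Over all genes tested, 28.4% lay above both WT libraries in Tek-Cre:Lama5-/-. Of all genes at 5 CPM or more, 39.1% lay below both in Lama4-/-. Axin2 had log2 values of 0.055 and -0.13, Apcdd1 of 0.13 and -0.14, and Reck of 0.21 and -0.19. Of the 3 values in Tek-Cre:Lama5-/- only that of Reck passed its test (edgeR adjusted p 1.44e-06), and the Lama4-/- values have no test.

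Within Tek-Cre:Lama5-/-, Axin2 was at 0.055 in endothelial-like cells, at -0.65 in smooth muscle-like cells and at -0.52 in astrocyte-like cells (SE 0.353, edgeR adjusted p 0.513). Fzd4 was lower in endothelial-like cells and at 0.47 in astrocyte-like cells (SE 0.308, adjusted p 0.493). Tnfrsf19 was at 0.09 in endothelial-like and at -0.21 in smooth muscle-like cells. Of the values outside the endothelium given here, only that of Axin2 in smooth muscle-like cells passed.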

How the results depend on the processing

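Of 2243 recomputed values of single members, 4 reversed, 62 lost a call, 15 gained one and 97 changed direction without a call on either side; DESeq2 gave no adjusted p for 25. All 4 reversals came from library totals without TMM, an alternative chosen after seeing the data: Lef1 in the Lama5 knockout (-0.0091 in endothelial-like cells, -0.0078 in the capillary range), and Lef1 and Lrp6 between WT groups (-0.11 each). The 5 members called in endothelial-like cells of the Lama5 knockout became 3 with DESeq2 and 3 to 5 without 1 library (3 without knockout replicate 1). The 2 called in other classes became 0 with DESeq2 and with no filter on low counts, 1 with doublets kept and 0 to 2 without 1 library (0 without knockout replicate 1, 1 without knockout replicate 2 or WT replicate 2). The 18 other pathway genes called became 10 with DESeq2 and 11 to 17 without 1 library (11 without knockout replicate 2). In smooth muscle-like cells DESeq2 gave Axin2 no adjusted p, so there the Axin2 call was not retested and only the Fzd4 call was. The cause of these changes was not tested. Fzd4, Fzd6 and Reck passed in endothelial-like cells in all 12 alternatives run. The replicate block left the counts of members called at 5, 8, 2 and 8 (endothelial-like cells, the 3 ranges together, other classes, WT groups). Same-numbered libraries did not deviate together (correlations -0.0134 and -0.0252), so the numbers show no pairing; the interaction already held the library as a block.

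Over all genes, DESeq2 called 1179 where edgeR called 2679 in endothelial-like cells, 280 for 723 in the arterial, 605 for 1684 in the capillary and 470 for 1167 in the venous range, 221 for 549 in smooth muscle-like, 544 for 1183 in microglia-like and 12 for 36 in pericyte-like cells, and 25 for 55 in the interaction. With no filter the count was 696 in the venous range, 198 in smooth muscle-like, 270 for 138 in astrocyte-like and 1 for 29 in perivascular macrophage-like cells. With the replicate block it was 70 in pericyte-like, 262 in astrocyte-like and 56 in perivascular macrophage-like cells. Stricter cells gave 18 in pericyte-like and 1388 in astrocyte-like cells, doublets kept gave 16 and 42, and 10% ends gave 36 in the interaction. Without WT replicate 1 the count was 427 in the arterial range, 272 in smooth muscle-like, 59 in astrocyte-like and 0 in perivascular macrophage-like cells, and 26 in the interaction. Without WT replicate 2 it was 395 in the arterial range, 36 in astrocyte-like and 1 in perivascular macrophage-like cells, and 32 in the interaction. Without knockout replicate 1 it was 1036 in the capillary range and 49 in astrocyte-like cells, and without knockout replicate 2 it was 399 in the arterial range, 1090 in the capillary range and 223 in astrocyte-like cells.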
